A study of Mus musculus with 12 samples.

Results

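SR proteins are splicing factors that carry an RNA recognition motif and a tail rich in arginine and serine. They bind exonic enhancers and help the spliceosome to choose splice sites, and several of them limit their own level by splicing their transcripts into forms with a retained intron or a premature stop codon that is read by nonsense-mediated decay. N6-methyladenosine (m6A) is a methyl mark on adenosine in RNA, and one of its nuclear readers, Ythdc1, is known to recruit Srsf3 and to oppose Srsf10. The 10 genes described here are Srsf1, Srsf2, Srsf3, Srsf4, Srsf5, Srsf6, Srsf7, Srsf10, Srsf11 and Tra2b. A peak was counted for a gene when the gene's name was assigned to it or when it was called on the gene's Ensembl identifier. These rules gave 15 of 27292 m6A peaks in the OVA list and 14 of 26102 in the PBS list, and both rules chose the same peaks.

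The lungs came from female BALB/c mice of 6 to 8 weeks. The OVA group, a model of acute allergic asthma, was sensitised with ovalbumin and aluminum hydroxide on days 0 and 7. It breathed a 3% ovalbumin aerosol for 30 min a day from day 14 to day 20. The PBS group was injected with phosphate-buffered saline alone, without aluminum hydroxide, and was exposed to phosphate-buffered saline in place of the aerosol of ovalbumin. By the study's methods, lungs were taken on day 21 after a provocation test with inhaled methacholine, a drug that narrows the airways. Each group had 3 libraries of RNA precipitated with an m6A antibody (IP) and 3 libraries of input RNA, 12 libraries in all. The deposited files hold 1 peak list per group, and how its libraries were combined is not given in the sources used here, so no value of a single mouse was available, no difference between the groups could be tested, and the number of reads behind a peak is unknown. In whole lung, a change in cell types and a change in the RNA of a cell cannot be told apart. Of 11 lung marker genes, 10 had a peak in both lists, among them Pecam1 of endothelial cells with 5 peaks in each, Foxj1 of ciliated cells with 3 in OVA and 4 in PBS, and Ager of alveolar type I cells with 3 and 2. The highest lung marker peak in OVA, with a fold enrichment of 15.8, was assigned to Foxj1 but called on Rnf157, and the highest in PBS was a Foxj1 peak at 17.3. Sftpc, the surfactant gene of alveolar type II cells, had none, which says nothing of its expression, since a peak list holds only RNA enriched by the antibody.

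Of the 10 SR genes, 8 had a peak in both lists, Tra2b had one in OVA only and Srsf3 had none in either. Over all 14988 genes with a called peak in at least 1 list, 10.8% had one in OVA only and 7.22% in PBS only, so 1 of the 9 SR genes with a peak lies near the background. Fold enrichment below is the ratio of IP to input in the peak as the peak caller gave it. The median over the SR peaks was 2.71 in OVA and 3.07 in PBS, below the medians of 5.59 and 5.44 over all peaks of each list. Among SR peaks with a fold enrichment of at least 2 the medians were 5.23 and 3.77, and among those that touched their assigned transcript 3.59 and 3.37, a choice made after seeing the data, so the order of OVA and PBS turned under both. A fold enrichment under 2 was found for 5 SR peaks in OVA and 3 in PBS, 33.3% and 21.4%, against 10.1% and 10.6% of all peaks. In OVA and PBS the share was 23% and 29.8% for other SR and SR-related genes, 25.9% and 26.9% for hnRNP genes, 36.7% and 10% for core spliceosome genes, 11.1% and 15% for SR kinase and import genes, 13% and 15.8% for nonsense-mediated decay factors and 42.1% and 30% for lung markers. The log10 p values of the SR peaks were not weaker than those of the lists, with medians of -33.8 and -30.4 against -24 and -21.4. Medians below those of all peaks were also seen in lists with no SR gene. They were 3.08 in OVA and 3.23 in PBS for the hnRNP genes, whose products often oppose SR proteins, 3.03 and 2.98 for core spliceosome genes, 3.58 and 2.85 for SR kinase and import genes, and 2.68 and 2.45 for the lung markers, which lay below the SR genes in both lists. For the nonsense-mediated decay factors they were 4.16 and 6.09, the second above that of all PBS peaks.

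**Figure D1:**
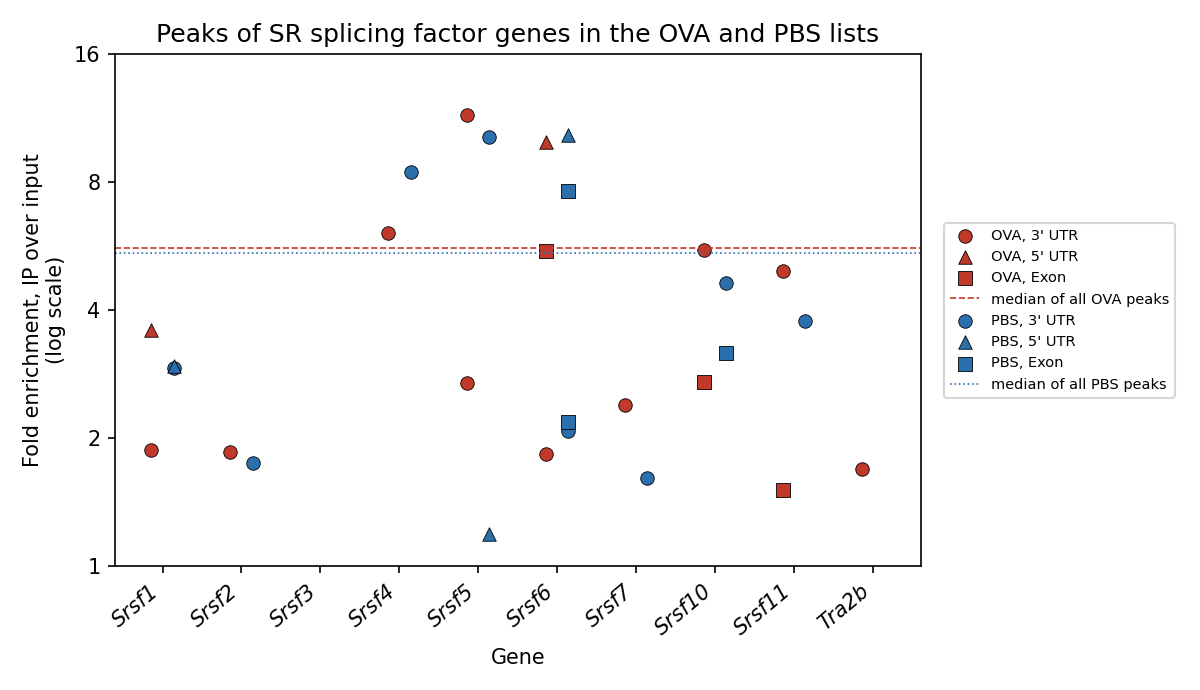
Fold enrichment of each SR gene peak, IP over input on a log scale, with OVA peaks in red and PBS peaks in blue, the marker shape giving the annotated region and the lines giving the median of all peaks of each list. Srsf5 and Srsf6 hold the highest points in both lists, at 11.5 and 9.93 in OVA and 10.2 and 10.3 in PBS, and Srsf3 has no point.

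By fold enrichment, the SR genes with the highest peaks were Srsf5, Srsf6 and Srsf4. Srsf5 encodes a classical SR protein, and its highest peak lay at chr12:80949728-80950387 in OVA and chr12:80949728-80950507 in PBS, toward the 3' end of the gene. Its fold enrichment was 11.5 in OVA, rank 6731 of 27292, and 10.2 in PBS, rank 7113 of 26102. The log10 p was -1330 and -1240, by which it was rank 512 of the OVA list and rank 561 of the PBS list. A second Srsf5 peak differed between the lists. OVA had a 61-base peak at chr12:80947160-80947220, labelled 3' UTR although it lies 33.8% of the way along the gene, with a fold enrichment of 2.7 and a log10 p of -6.86. PBS had instead a 5' UTR peak at chr12:80945564-80945774 with a fold enrichment of 1.19, rank 26087 of 26102, and a log10 p of -7.06.

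Srsf6, another SR protein, had the most peaks, 3 in OVA and 4 in PBS. The highest began at the transcript start and was labelled 5' UTR, at chr2:162931528-162932162 in OVA with a fold enrichment of 9.93 and at chr2:162931528-162932073 in PBS with 10.3. In exon 2 of 5 of a transcript other than the assigned one, OVA had 1 peak at chr2:162932222-162932700 with a fold enrichment of 5.51. Over the same bases PBS had a pair of peaks, one of 91 bases at 2.19 and one of 330 bases at 7.61, so the extra PBS peak lay within the bases of an OVA peak. The 3' UTR peak was weak in both, at 1.84 and 2.08, although its log10 p was -49.9 and -50.2. The first 30 bases of the 5' peak are shown because they are the part of any SR peak that the RefSeq promoter windows cover (GRCm38.p6, plus strand, chr2:162931528-162931557), with a match to the m6A motif in capitals.

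Srsf6 5' end: accattgtgtggcTGACTcggccgccgctg

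The motif searched on the transcript strand was A, G or T, then A or G, then AC, then A, C or T. It was present once in these 30 bases, and 36.4% of 32851 promoter windows held it in their last 30 bases. All 10 SR genes had a promoter window, 13 windows in total.

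Srsf4, an SR protein with a long arginine- and serine-rich tail, had 1 peak per list over its 3' end, at chr4:131900067-131901706 in OVA with a fold enrichment of 6.08 and chr4:131900390-131901706 in PBS with 8.47. The same bases were also called as peaks of Gm12992, a noncoding gene on the opposite strand, at 4.43 and 5.63 in OVA and 7.11 in PBS, and these were assigned to a transcript of Gm12978. The libraries were made with dUTP in the second strand, which keeps the strand of the RNA, but whether peak calling used it is not given in the sources used here, so in these lists the RNA of Srsf4 and of Gm12992 cannot be told apart at this place. None of the other SR genes had a peak of another gene within its RefSeq span.

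Srsf10, a factor that represses splicing when dephosphorylated, had 2 peaks in each list. Its highest was a 3' UTR peak with a fold enrichment of 5.55 in OVA (chr4:135867185-135867484) and 4.64 in PBS (chr4:135867185-135867454). An internal peak, in exon 3 of 7, had 2.71 and 3.18. As in Srsf6, this exon number belongs to a transcript other than the assigned one. The same held for 69.3% of all exon peaks in OVA and 70% in PBS. Srsf11 had a 3' UTR peak at chr3:158011940-158012466 in OVA with 4.95 and at chr3:158011970-158012814 in PBS with 3.77. The log10 p of this peak was -254 in OVA and -142 in PBS, lower than for any Srsf6 peak of the same list. The other Srsf11 peak, chr3:158023592-158023772, was present in OVA only, with a fold enrichment of 1.51 and a log10 p of -30.2.

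Srsf1, which takes part in both constitutive and regulated splicing, had its highest peak at the same bases in both lists, chr11:88047672-88047851, labelled 5' UTR, with a fold enrichment of 3.59 in OVA and 2.96 in PBS. Its 3' UTR peak was 91 bases long in OVA with 1.88 and 449 bases long in PBS with 2.92. Srsf2 had 1 peak, at chr11:116851902-116852052 in OVA with 1.86 and chr11:116851902-116852022 in PBS with 1.75. Srsf7, which carries a zinc knuckle beside its RNA recognition motif, had 1 peak at chr17:80204582-80204910 in OVA with 2.4 and chr17:80204582-80204850 in PBS with 1.61. Tra2b, an SR-like protein that binds purine-rich enhancers, had only a 91-base OVA peak at chr16:22248447-22248537 with a fold enrichment of 1.69 and a log10 p of -3.98, rank 23240 of the list.

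Peaks labelled 3' UTR made up 10 of 15 in OVA and 8 of 14 in PBS, 66.7% and 57.1%, against 52.7% of all peaks in each list. Among peaks called on RefSeq protein-coding genes the shares were 59.1% in OVA and 59% in PBS. The 95% Wilson intervals of the SR shares, which cover counting error only, were 41.7% to 84.8% and 32.6% to 78.6%. The SR shares were thus not distinguishable from either background. Measured from the 5' end of the RefSeq gene, the middle of the SR peaks with this label fell at a median of 74.4% in OVA and 73.9% in PBS, against 94.7% over 10724 such peaks in OVA and 94.8% over 10281 in PBS. For the hnRNP genes the same median was 68.5% in OVA and 72.2% in PBS, lower than for the SR genes. It was 85.5% and 90.1% for the other SR and SR-related genes, and lay between 90.5% and 98% in both lists for the remaining gene lists. Srsf4, Srsf11 and the strong Srsf5 peak lay beyond 90% in both lists. Srsf7 lay at 36% in OVA and 36.4% in PBS, and Srsf2 at 44.9% and 45.3%. Hence in Srsf2 and Srsf7 the only peak was in the body of the gene.

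**Figure D2:**
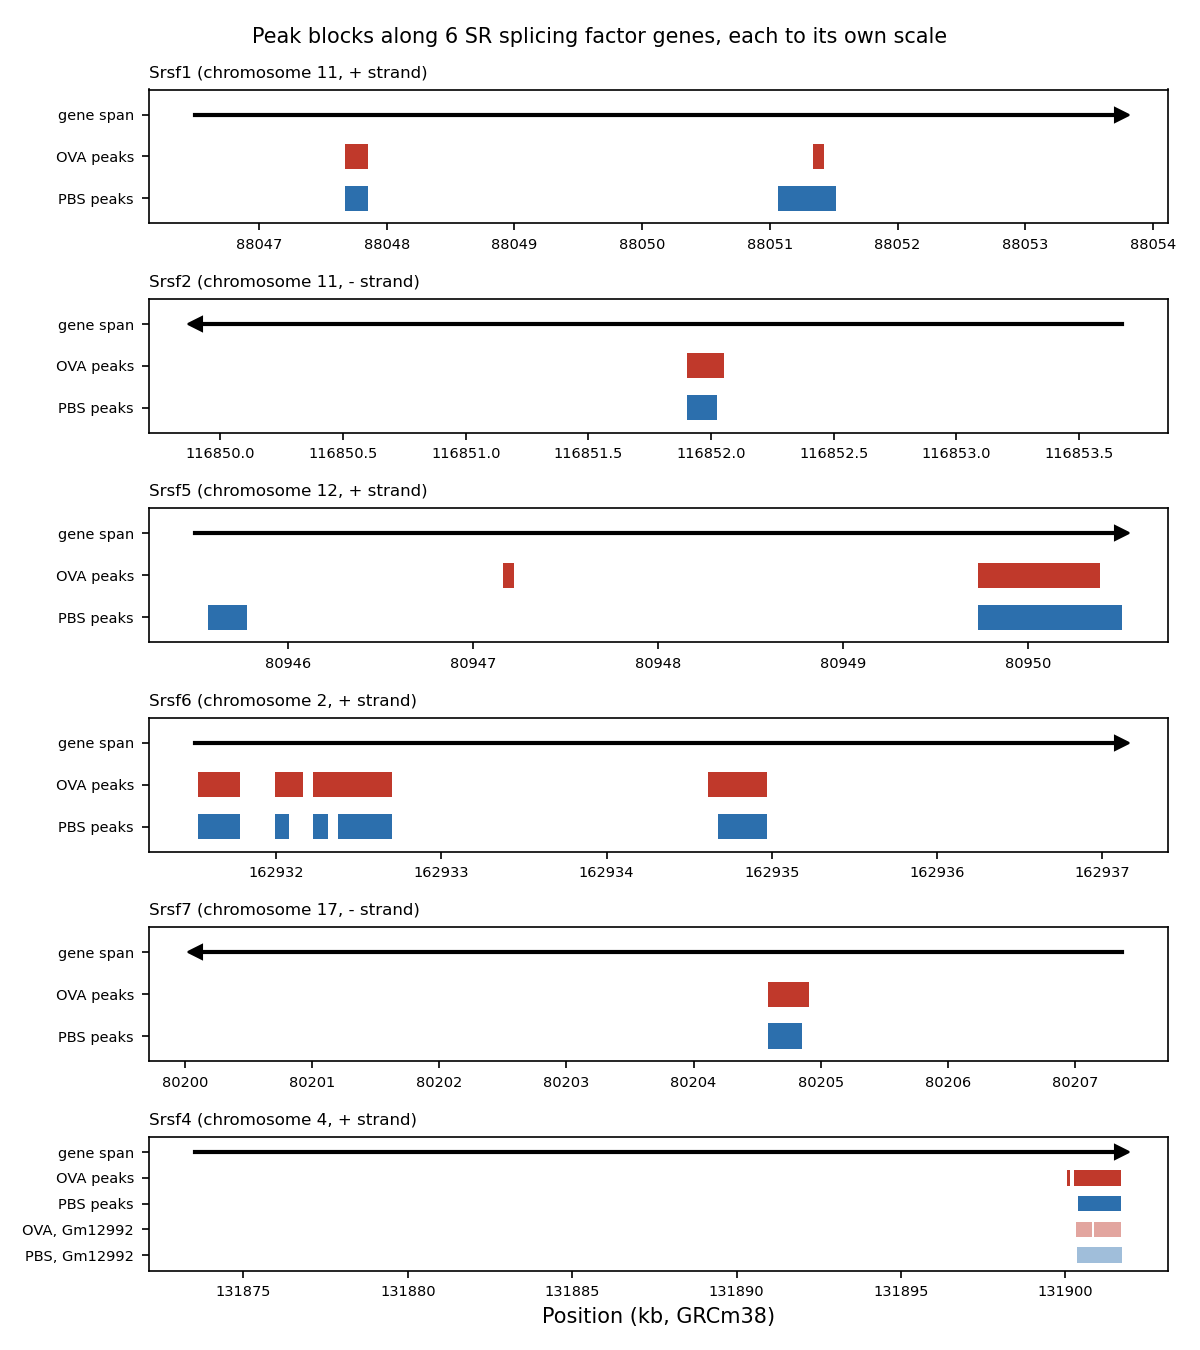
Peak blocks of 6 SR genes along the RefSeq gene span, in kb of GRCm38 and each panel to its own scale, with the arrow giving the direction of transcription, OVA in red and PBS in blue. Peaks of Srsf2 and Srsf7 lie inside the gene, Srsf4 peaks lie at its 3' end together with the peaks of Gm12992 (pale bars), and Srsf5 has 1 further peak in each list at a different place.

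Each peak carries the biotype of the transcript assigned to it, and the shares below were not tested. Protein-coding transcripts were assigned to 3 of 15 SR peaks in OVA, 20% with an interval of 7.05% to 45.2%, and to 4 of 14 in PBS, 28.6% with an interval of 11.7% to 54.6%. Over peaks called on RefSeq protein-coding genes the shares were 45.9% and 46.4%, just above the OVA interval and inside the PBS interval. Other SR and SR-related genes, at 23% and 22.8%, and SR kinase and import genes, at 22.2% and 25%, had similarly low shares. The shares were 33.3% and 40% for core spliceosome genes and 55.6% and 38.5% for the hnRNP genes. For nonsense-mediated decay factors they were 47.8% and 47.4%, and for the lung markers 42.1% and 45%. All the protein-coding assignments of SR peaks were in Srsf1 and Srsf6. Without Srsf6 the share of SR peaks was 8.33% in OVA and 10% in PBS, a choice made after seeing the data. Retained-intron transcripts were assigned to 9 OVA peaks, 60% with an interval of 35.7% to 80.2%, and to 6 PBS peaks, 42.9% with an interval of 21.4% to 67.4%, against 22.8% and 22.3% of peaks on protein-coding genes. The OVA interval lies above that share and the PBS interval includes it. Nonsense-mediated decay transcripts were assigned to Srsf2 in both lists and to the PBS-only peak of Srsf5, and processed transcripts to both peaks of Srsf10. Decay transcripts made up 6.67% of SR peaks in OVA and 14.3% in PBS, against 4.58% and 4.63% on protein-coding genes. Their shares were 14.8% and 21.1% for other SR and SR-related genes and 11.1% and 15.4% for hnRNP genes. SR kinase and import genes had 5.56% and 15%, core spliceosome genes 6.67% and 0%, and decay factors and lung markers 0% in both. Processed transcripts made up 13.3% and 14.3% of SR peaks, against 15.5% and 15.3%. For the hnRNP genes the retained-intron share was 27.8% in OVA and 38.5% in PBS, and for 19 other SR and SR-related genes it was 41% and 33.3%. It was 44.4% and 40% for SR kinase and import genes, 43.3% and 35% for core spliceosome genes, 34.8% and 26.3% for nonsense-mediated decay factors and 42.1% and 40% for the lung markers. Peaks of 1 gene share their transcripts and are not independent, which the intervals do not cover.

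The assigned biotype is not a measurement of which transcript was methylated. Of all peaks, 41.2% in OVA and 42.3% in PBS did not touch the span of the transcript assigned to them, and this was so for 4 SR peaks in each list. Both Srsf10 peaks were among them: the internal peak ends 2731 bases before the start of its assigned processed transcript in OVA. The 3' UTR peak of Srsf1 lies past the end of its assigned retained-intron transcript, and the 3' UTR peak of Srsf6 past the end of its protein-coding one. Among the SR peaks that touched their transcript, retained-intron transcripts were assigned to 8 of 11 in OVA and 5 of 10 in PBS, 72.7% and 50%, against 21% and 20% of such peaks on protein-coding genes. The intervals were 43.4% to 90.3% and 23.7% to 76.3%. The same shares in OVA and PBS were 42.4% and 32% for the other SR and SR-related genes, 54.5% in both for SR kinase and import genes, 42.9% in both for core spliceosome genes and 25.6% and 34.9% for the hnRNP genes. They were 28.6% and 25% for the lung markers, which had 7 and 8 such peaks, and 15.4% and 16.7% for nonsense-mediated decay factors. Of the 9 OVA peaks and 6 PBS peaks assigned to retained-intron transcripts, 8 and 6 carried a UTR label, as did 67.2% and 67.8% of all retained-intron peaks. Ensembl gives retained-intron transcripts no coding sequence, so label and biotype cannot both describe the same transcript there.

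Blocks shared at least 1 base with a peak of the other list in 12 of 15 OVA peaks and 13 of 14 PBS peaks. The peaks without an overlap were 3 in OVA (Srsf5, Srsf11 and Tra2b) and 1 in PBS (Srsf5), against 19.4% of all OVA peaks and 14.5% of all PBS peaks, so that the OVA share of 20% is near that of the list. With identical start and end required, 14 OVA and 13 PBS peaks had no match. The share of all peaks without a match under that rule was not measured, so these counts are no result about the SR genes. The 4 SR peaks without an overlap had fold enrichments of 2.7, 1.51 and 1.69 in OVA and 1.19 in PBS. The medians over the SR peaks were 2.71 and 3.07. Other SR peaks in this range did overlap, among them Srsf2 at 1.86 in OVA and 1.75 in PBS. A link between fold enrichment and overlap was not tested. Matching each OVA peak with the PBS peak of largest overlap gave 12 pairs, and none had a 2-fold ratio of fold enrichments, where 12.7% of 20531 pairs did. The ratio was above 1 in 6 pairs and below 1 in 6, with a median of 1.01, while the median over all pairs was 1.1, which also holds any difference in IP efficiency between the groups. The widest ratios were 0.644 for the 3' UTR peak of Srsf1, whose PBS peak was longer, and 1.49 for Srsf7. By overlap alone the Srsf4 peak of OVA was matched to the Gm12992 peak of PBS at a ratio of 0.855, and its own PBS peak gave 0.718. With no replicate lists, none of these ratios can be set against the spread between mice.

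Among the other genes of the pathway, some peaks had a higher fold enrichment than any SR peak. Of the 19 other SR and SR-related genes, 17 had a peak in both lists, with 61 peaks in OVA and 57 in PBS. Son, a large scaffold of nuclear speckles, had 8 and 11, Srrm2, its partner there, 8 and 7, and Bclaf1, Thrap3 and Luc7l2 had 9 each over both lists. The highest peak in OVA belonged to Snrnp70, the U1 snRNP protein that SR proteins contact, at 24.2, and the highest in PBS, at 22.7, was assigned to U2af2 but called on Ccdc106. Of the 10 genes for kinases and import of SR proteins, 9 had a peak in both lists, led in number by Clk3 with 3 and 4, Srpk1 with 3 and 3 and Prpf4b with 2 and 4, and Prpf4b had the highest at 20.8 and 24.

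Of 26 hnRNP genes, 21 had a peak in both lists. Hnrnpm had 9 peaks over both lists and Hnrnpf and Hnrnpl 8 each, and the highest was in the 5' UTR of Syncrip at 63.5 in OVA and 38.1 in PBS. Of 29 core spliceosome genes, 15 had a peak in both lists, 4 in OVA only, 1 in PBS only and 9 in neither. Sf3a3 had 5 peaks over both lists and Sf3b4, Snrpd2 and Prpf31 had 4 each, and the highest peaks were in Sf3b5 in OVA at 23.1 and in Prpf4 in PBS at 20.1. Of 10 nonsense-mediated decay factors, 9 had a peak in both lists, with 6 peaks each in Upf2 and Upf3b, and the highest were in Smg8 in OVA at 20.9 and in Upf1 in PBS at 81.9.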

How the data were processed

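The authors mapped the reads with HISAT2, used exomePeak for peak calling and ChIPseeker for annotation. The deposited lists are 1 per group, IP against input. How the libraries of a group were combined and the tools' versions are not given in the sources used here. The deposited fold enrichment is a ratio of IP to input. The deposited log10 p and log10 FDR are scores of the peak caller. Genes were matched by identifier to symbols, and 97.7% of OVA and 97.8% of PBS peaks called on RefSeq protein-coding genes overlapped that gene in GRCm38.p6. Deposited starts lay 1 base before a transcript start 649 times and on it 20 times in OVA, so 1 was added to each. Overlap needed 1 base of shared blocks, and pairs were mutual best matches. Overlap code was tested on simulated peaks. Python 3.11.15, pandas 2.3.3, numpy 2.4.6, scipy 1.17.1 and matplotlib 3.10.9 were used. No test between groups was made, since each group has 1 list. Named genes were all 10 members with their highest peak per list and each peak of 1 list only, the 3 genes with most peaks of each other list (ties included) with its highest peak, and pairs past 2-fold. The members and gene lists were chosen with earlier results of these data known. Other examples were chosen after their values were seen. One gene that the naming rule takes is not reported here.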

Additional observations from a re-analysis of the deposited data

How the results depend on the processing

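No paired analysis was possible because each group has a single list. Of 62 values recomputed under another choice, 52 were the same by the rules used (a count within 1.5 times, a share within its interval, a median unchanged) and 10 moved. Requiring a fold enrichment of at least 2 left 10 OVA and 11 PBS peaks, with medians of 5.23 and 3.77. Of these, 2 OVA and 2 PBS peaks were without an overlap. Identical start and end left 14 OVA and 13 PBS peaks unmatched. Blocks shared over at least 50% of both peaks left 4 OVA and 3 PBS peaks unmatched. At 1.5-fold, 1 pair (the 3' UTR peak of Srsf1) was counted. The shares of all peaks or pairs were not measured under these settings or at a fold enrichment of at least 2. Hence none of these counts of unmatched peaks or of pairs is a result about the SR genes. Of the choices made after seeing the data, leaving out Srsf6 gave a protein-coding share of 10% in PBS, and keeping only peaks that touch their assigned transcript gave medians of 3.59 in OVA and 3.37 in PBS. An FDR under 0.05 removed no SR peak. Read depth per peak is unknown, so what it limits could not be measured.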
